A study of Bos taurus with 6 samples.

Results

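The genes described here belong to families that make, break down and read out the second messenger cAMP in rumen epithelial primary cells (REPC). They are the adenylyl cyclases, the cyclic nucleotide phosphodiesterases (PDEs), the subunits of protein kinase A (PKA), the EPAC exchange factors and PPP1R1B. The PDEs were taken by name, so they include enzymes specific for cGMP and accessory subunits, and counts over all members cover these too. Every entry of the deposited expression tables with the name of such a gene was taken, which gave 44 of 32183 entries under 43 gene names, because PDE5A is listed at 2 separate positions. The cells came from the rumen of 1 Holstein bull calf, 2 weeks old and given only milk replacer. For 3 cultures RNA was sequenced after 24 h with 5 mM butyrate, and a further 3 served as controls. Every culture in both groups came from that calf, so each p-value below measures the spread between these cultures and not between animals. The comparison asks how butyrate, a short-chain fatty acid made by microbial fermentation in the rumen, altered RNA levels in these cells.

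Levels are given as FPKM, the fragments of a gene scaled by transcript length and by the library's mapped fragments, which removes transcript length and allows genes to be compared within a culture. The tables hold no read counts, so the depth of each library cannot be read from them. The paper reports a total of clean RNA-seq reads and a mapping summary of its data sets, which were not used here. The number of entries above 0 ran from 16051 to 16193 in control and from 17306 to 17510 after butyrate. Summed FPKM ran from 678035 to 681912 in control and from 619401 to 629037 after butyrate. Keratins marked the cells in both groups, with KRT17 at mean levels of 3859 FPKM in control and 3990 FPKM after butyrate and KRT8 at 1380 and 1971 FPKM. Their levels were not stable: KRT14 rose from 72.5 to 500 FPKM and KRT19 from 492 to 1953 FPKM, whereas KRT5 fell from 401 to 356 FPKM. Of 11 epithelial markers 63.6% rose and 9.09% fell, beside 32.5% and 25.9% of all tested genes. CDH1, which encodes the epithelial adhesion protein E-cadherin, was at 49.8 and 48.9 FPKM, whereas EPCAM was low, at 0.540 and 3.33 FPKM. Genes typical of fibroblasts were abundant too: the 9 on a marker list summed to between 4356 and 4512 FPKM in control and between 6374 and 6715 FPKM after butyrate, led by VIM. Among smooth muscle markers ACTA2 was at 2752 FPKM in control and 1006 FPKM after butyrate, and CNN1 at 805 and 216 FPKM. MYH11 was at 0.662 and 0.0762 FPKM, and DES at 0.367 and 1.60 FPKM. Of the 3 endothelial markers, CDH5 was listed at 0 in all 6 cultures, while PECAM1 rose from 1.54 to 3.95 FPKM and VWF from 0.456 to 3.31 FPKM. Of the 3 leukocyte markers, PTPRC was listed at 0 throughout, CD3E was at or near 0, and CD68 rose from 0.595 to 1.21 FPKM.

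Cyclic AMP is made from ATP by adenylyl cyclases, most of which span the plasma membrane and are switched on by Gs and off by Gi proteins downstream of hormone receptors. It binds the regulatory subunits of PKA, which frees the catalytic subunits to phosphorylate their targets, and it also activates the EPACs, which load Rap GTPases with GTP. Phosphodiesterases end the signal, and their families differ in whether they hydrolyse cAMP, cGMP or both. In epithelia this pathway is known for its control of ion and fluid transport.

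Of the 44 entries, 33 reached a mean of 0.1 FPKM over the 6 cultures and were tested with limma on log2(FPKM + 0.1), a scale on which the changes of low genes are understated. A gene rose or fell where the Benjamini-Hochberg adjusted p was under 0.05, and it was called a differentially expressed gene (DEG) where the Bonferroni adjusted p was under 0.05 and the log2 fold change passed 2 in either direction. After butyrate 14 members rose, 4 fell and 15 were not called. These are counts of entries, and the 4 that fell include both entries of PDE5A. Over all 15813 genes tested, 32.5% rose and 25.9% fell, against 42.4% and 12.1% of the members. The DEGs among the members were PDE4C, PDE9A and PPP1R1B, all higher after butyrate, which makes 9.09% of those tested, and 2.46% of all tested genes were DEGs in that direction. No member was a DEG with a lower level, a call that 1.51% of all tested genes received. The count of 3 DEGs was sensitive to single cultures: it was 2 without control culture 3 and 0 without any other of the cultures. It was also 0 with a pseudocount of 0.01 and 1 with a pseudocount of 1, while the genes themselves kept their rise by the Benjamini-Hochberg rule under each alternative that tested them. With 3 cultures against 3, an exact permutation test of 1 gene cannot give a two-sided p below 0.1, so calls rest on the variance that limma shares across genes.

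The calls differed with the level of the member. Among the 20 members with a mean of at least 1 FPKM, 7 rose and 4 fell, or 35% and 20%, beside 33.0% and 32.2% of the 12079 genes tested in that range. Among the 13 with a mean between 0.1 and 1 FPKM, 7 rose and none fell by limma, beside 30.9% and 5.30% of the 3734 genes tested there. 6 members passed the filter with a control mean under 0.1 FPKM: ADCY2, PDE2A, PDE4C, PDE6A, PDE6G and PPP1R1B. All of these but PDE6G, or 5, rose, a direction their selection favours, since 60.5% of the 1198 tested genes of that kind rose as well. The median log2 fold change was 0.54 over the 33 members and 0.10 over all genes tested. Without genes listed at 0 in every control culture it was 0.49 over 31 members and 0.075 over all genes tested. At a mean of at least 1 FPKM it was 0.079 for the members and 0.0021 for all genes tested. Between 0.1 and 1 FPKM these medians were 1.29 and 0.66.

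**Figure D1:**
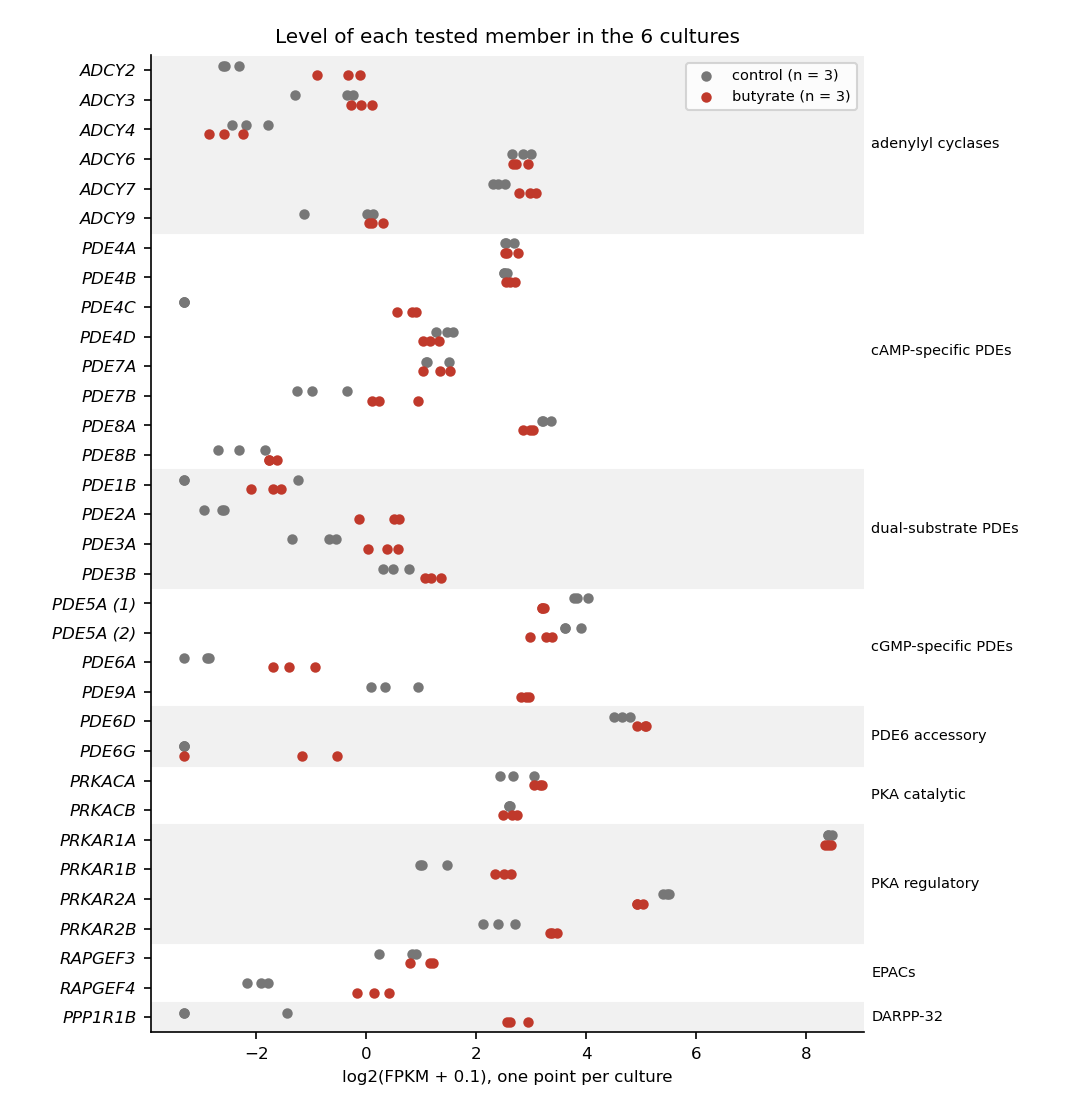
Level of each tested member in each culture as log2(FPKM + 0.1), with control cultures as grey points and butyrate cultures as red points (3 each), grouped by enzyme class. The groups did not overlap for 19 of the 33 members, 15 of them higher and 4 lower after butyrate (36.1% and 28.9% of all tested genes were so placed), and PRKAR1A lay far to the right of all others at 326 to 353 FPKM.

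The 11 members that were not tested were the cyclases ADCY1, ADCY5, ADCY8 and ADCY10 and the phosphodiesterases PDE1A, PDE1C, PDE10A, PDE11A, PDE6B, PDE6C and PDE6H. 5 of them, ADCY5, PDE1C, PDE6B, PDE6C and PDE6H, were listed at 0 in all 6 cultures. PDE1A, a calmodulin-regulated enzyme, was listed at 0 in each control culture and at 0.0444, 0.0556 and 0 FPKM in the butyrate cultures, while ADCY1 was listed at 0 in the controls and at 0.0391, 0 and 0.0394 FPKM after butyrate. The remaining 4 were above 0 in 1 or 2 cultures only, at 0.0401 FPKM or less. The genes for the photoreceptor enzyme PDE6, which serves vision, were thus mostly at or near 0 in these cells.

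**Figure D2:**
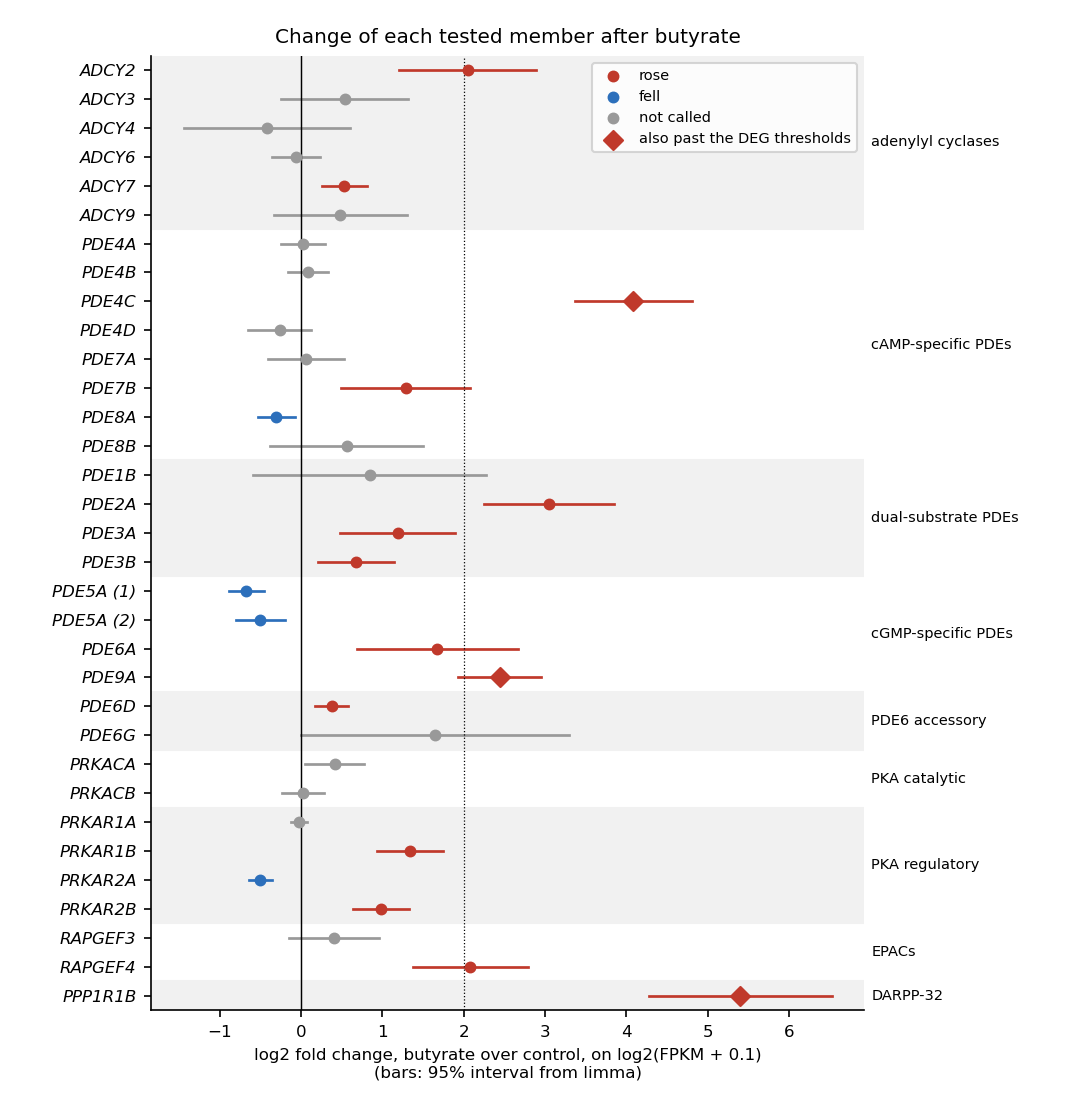
Log2 fold change of each tested member, butyrate over control, with the 95% interval from limma; red points rose, blue points fell, grey points were not called, diamonds mark DEGs, and the dotted line marks the log2 threshold of 2. Calls in the upward direction outnumbered those in the downward direction 14 to 4 (42.4% and 12.1%, beside 32.5% and 25.9% of all tested genes). The 4 include both entries of PDE5A. The largest value was that of PPP1R1B, at 5.40.

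Among the adenylyl cyclases 2 of the 6 tested rose, none fell and 4 were not called by limma. The 33.3% that rose was close to the 32.5% of all tested genes, of which 25.9% fell. ADCY6, a cyclase inhibited by calcium, was the most abundant, at 7.93, 7.12 and 6.22 FPKM in the control cultures and 6.52, 6.27 and 7.54 FPKM after butyrate (gene at chromosome 5, 31155103 to 31176231 of build UMD3.1, as are all positions below). The groups overlapped, and the log2 fold change of -0.06 had a 95% interval from -0.36 to 0.23 (adjusted p = 0.705). ADCY7 (chromosome 18, 18745673 to 18809436), a cyclase best known from blood cells, was at 5.15, 5.68 and 4.87 FPKM in control and at 8.39, 7.75 and 6.80 FPKM after butyrate. All butyrate values lay above all control values, and the level rose 1.46-fold (log2 fold change 0.54 ± 0.12 SE, adjusted p = 0.00533). In bulk RNA such as this, a lower or higher level per cell cannot be told apart from a change in the share of cells of one type.

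ADCY2 (chromosome 20, 65504900 to 65943133), a cyclase that G protein βγ subunits stimulate and that is best known from brain, was near the floor in control, at 0.0646, 0.0693 and 0.10 FPKM, and reached 0.825, 0.437 and 0.696 FPKM after butyrate. The means differed 8.36-fold, and ADCY2 rose by the limma test (log2 fold change 2.05 ± 0.37, adjusted p = 0.00134) while staying under 1 FPKM. As its control mean was under 0.1 FPKM, ADCY2 was tested through its butyrate values, which favours a rise. ADCY3, at means of 0.578 and 0.845 FPKM, ADCY9, at 0.752 and 1.02 FPKM, and ADCY4, at 0.131 and 0.0720 FPKM, were not called, and their groups overlapped. ADCY4 was called lower after quantile normalization (log2 fold change -1.27, adjusted p = 0.0268). With a butyrate mean under 0.1 FPKM, ADCY4 was tested through its control values, which favours a fall. The end of ADCY3 overlaps CENPO, a centromere gene that went from a mean of 8.92 to 1.42 FPKM, and reads in that overlap cannot be told apart without strand. The summed level of the membrane cyclases went from 13.9 ± 1.64 FPKM (SD, n = 3) to 17.0 ± 0.675 FPKM.

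The share of each member within its family does not depend on how a library is scaled. ADCY6 made up 52.6%, 49.0% and 51.8% of the membrane cyclase FPKM in the control cultures and 36.7%, 38.0% and 44.8% after butyrate, so the butyrate shares lay below all control shares. ADCY7 made up 34.2%, 39.0% and 40.6% in control and 47.2%, 47.1% and 40.3% after butyrate, and these shares overlapped. ADCY6 and ADCY7 together held 89.0% ± 2.90 in control and 84.7% ± 0.731 after butyrate.

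**Figure D3:**
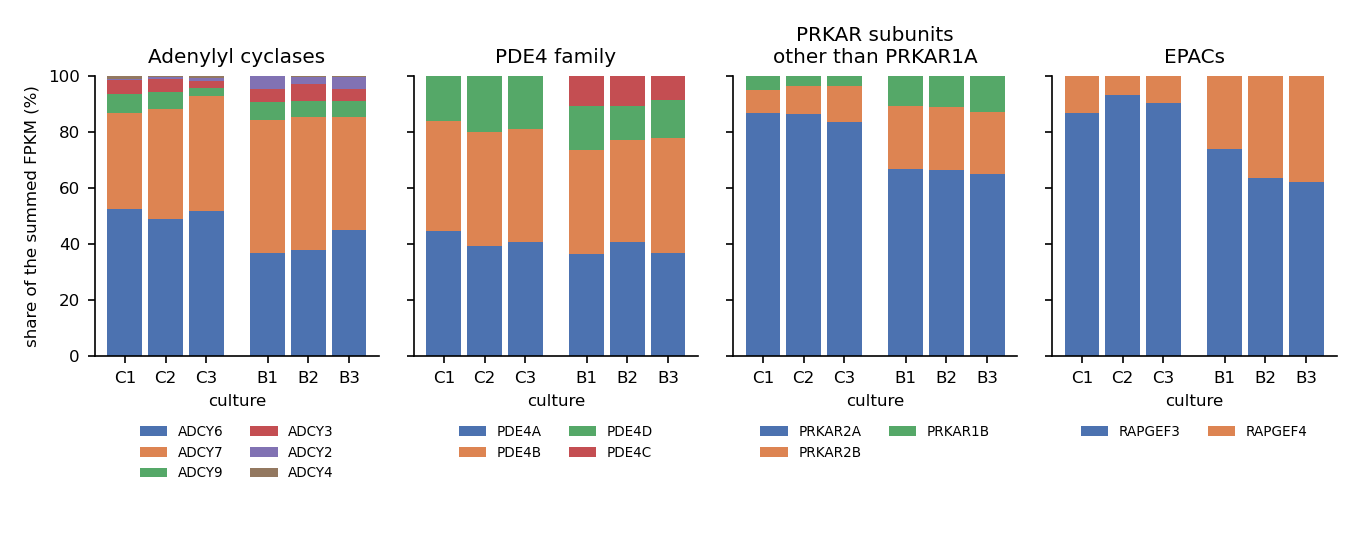
Share of the summed FPKM (in percent) that each member held within 4 families, with 1 stacked bar per culture (C1 to C3 control, B1 to B3 butyrate). PDE4C appears only in the butyrate bars of the PDE4 family, at 8.73% to 10.9%, and PRKAR2A narrows from 85.5% to 66.1% on average among the PKA regulatory subunits other than PRKAR1A.

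Among the enzymes that hydrolyse cAMP in preference to cGMP, 2 rose, 1 fell and 5 were not called by limma out of 8. The 25% that rose and 12.5% that fell stand beside 32.5% and 25.9% of all tested genes. Their summed level was close in the groups, at 26.5 ± 0.890 FPKM in control and 27.4 ± 1.39 FPKM after butyrate. Within the PDE4 family, the targets of the inhibitor rolipram, the gene that rose was PDE4C (chromosome 7, 4927779 to 4939931). It was listed at 0 in each control culture and at 1.67, 1.78 and 1.37 FPKM after butyrate. The lowest of the lower confidence bounds that the deposited tables give for the butyrate cultures was 0.874 FPKM. PDE4C was a DEG (limma, Bonferroni adjusted p = 0.0124), and no fold is given, because the control level is listed at 0. For the same reason it passed the filter through its butyrate values alone, which favours a rise.

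The other 3 genes of the family were expressed in both groups and were not called by the test as described. PDE4A (chromosome 7, 16204471 to 16215570) was at 5.89 ± 0.396 FPKM in control and 6.02 ± 0.556 FPKM after butyrate, with a log2 fold change of 0.03 (95% interval -0.24 to 0.30). PDE4B, which is known for its part in inflammation, was at 5.67 ± 0.140 and 6.06 ± 0.351 FPKM, with a log2 fold change of 0.09 (95% interval -0.15 to 0.34). PDE4D was at 2.62 ± 0.301 and 2.17 ± 0.224 FPKM, with a log2 fold change of -0.26 (95% interval -0.65 to 0.13), and was called lower after quantile normalization (log2 fold change -0.56, adjusted p = 0.0253). With PDE4C at 10.1% ± 1.23 of the family after butyrate, the family sum stood at 14.2 ± 0.292 FPKM in control and 15.9 ± 0.487 FPKM after butyrate.

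PDE8A (chromosome 21, 23117886 to 23262118), a high-affinity cAMP phosphodiesterase, was the most abundant of the cAMP-specific enzymes, at 9.14, 10.1 and 9.08 FPKM in control and 8.05, 7.78 and 7.10 FPKM after butyrate. The butyrate values were all lower, and the level fell to 0.809 of control (log2 fold change -0.30 ± 0.10, adjusted p = 0.0296). That call was lost without control culture 1 (adjusted p = 0.050), without control culture 2 (adjusted p = 0.0995), without butyrate culture 2 (adjusted p = 0.0533), without butyrate culture 3 (adjusted p = 0.0898) and after rescaling each culture to the same sum (adjusted p = 0.161). PDE7B (chromosome 9, 74847988 to 75199850), a further cAMP-specific enzyme, was at 0.682, 0.404 and 0.320 FPKM in control and at 1.07, 1.81 and 0.973 FPKM after butyrate. It rose 2.75-fold, without overlap of the groups (log2 fold change 1.29 ± 0.35, adjusted p = 0.0115), but not after quantile normalization (log2 fold change 0.72, adjusted p = 0.106). PDE7A, at means of 2.27 and 2.38 FPKM and with an entry at 5.42 and 3.12 FPKM inside its span, and PDE8B, at 0.112 and 0.204 FPKM, were not called.

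The dual-substrate enzymes hydrolyse both nucleotides, and of the 4 tested 3 rose, none fell and PDE1B was not called by limma. The 75% that rose stands beside 32.5% of all tested genes, of which 25.9% fell. Of those that rose, PDE2A passed the filter only through its butyrate values. Their summed level was 2.53, 1.94 and 1.5 FPKM in the control cultures and 5.51, 4.67 and 4.21 FPKM after butyrate, a ratio of 2.41 between the means. The class remained the lowest of the catalytic PDE classes in both groups.

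PDE2A (chromosome 15, 52913330 to 52984107), an enzyme that cGMP activates to break down cAMP, was at 0.0301, 0.0655 and 0.0627 FPKM in control and at 1.33, 1.42 and 0.811 FPKM after butyrate. The highest upper confidence bound in control was 0.185 FPKM and the lowest lower bound after butyrate was 0.493 FPKM, so the bounds did not meet. Bounds lay apart in this direction for 5 of the 33 tested members and 2528 of all 15813 tested genes. In the other direction they lay apart for 2 members and 2370 genes. The means differed 22.4-fold, and PDE2A rose by 3.05 ± 0.35 on the log2 scale (limma, Benjamini-Hochberg adjusted p = 9.4e-05), without reaching the DEG threshold (Bonferroni adjusted p = 0.276). With a control mean under 0.1 FPKM, PDE2A passed the filter through its butyrate values, which favours a rise.

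The PDE3 enzymes are inhibited by cGMP and hydrolyse cAMP. PDE3B (chromosome 15, 38464052 to 38626917), known for its part in insulin signaling in fat and liver cells, was the most abundant dual-substrate enzyme, at 1.62, 1.3 and 1.14 FPKM in control and 2.48, 2.15 and 2.0 FPKM after butyrate. It rose 1.64-fold (log2 fold change 0.68 ± 0.20, adjusted p = 0.0191), a call that was lost without control culture 3 (adjusted p = 0.0580), without butyrate culture 1 (adjusted p = 0.0679) and after quantile normalization (log2 fold change 0.31). PDE3A (chromosome 5, 89550756 to 89917705), the form known from heart and platelets, was at 0.523, 0.580 and 0.294 FPKM in control and at 1.40, 0.918 and 1.2 FPKM after butyrate. Its groups did not overlap and it rose 2.52-fold (log2 fold change 1.19 ± 0.31, adjusted p = 0.00991), although not after quantile normalization (log2 fold change 0.60, adjusted p = 0.140). PDE1B, a calmodulin-regulated enzyme, was at 0.321, 0 and 0 FPKM in control and 0.240, 0.133 and 0.207 FPKM after butyrate. Its call turned on control culture 1, without which it rose (log2 fold change 1.54, adjusted p = 0.0365).

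The cGMP-specific enzymes moved in both directions, with 2 of the 4 tested entries higher and 2 lower. Each direction held 50% of them, beside 32.5% and 25.9% of all tested genes. Both entries of PDE5A, the target of sildenafil, fell. The first entry (chromosome 6, 6874054 to 6988848) was at 16.3, 14.2 and 13.6 FPKM in control and at 9.13, 9.31 and 9.06 FPKM after butyrate, 0.623 of control (log2 fold change -0.67 ± 0.09, adjusted p = 0.000318). The second (chromosome 6, 7036104 to 7070187) went from 13.0 ± 1.57 to 9.22 ± 1.28 FPKM, 0.707 of control (log2 fold change -0.50 ± 0.13, adjusted p = 0.0106). The entries do not overlap each other in position, and how the counting divided reads between them is not known, so each value is uncertain. PDE5A is also known as an enzyme of smooth muscle. On a smooth muscle marker list 3 of the 4 genes fell, or 75% beside 25.9% of all tested genes. The other gene, DES, rose (log2 fold change 2.07, adjusted p = 0.0074 by limma), which is 25% of the list beside 32.5% of all tested genes. The list summed to between 3437 and 3626 FPKM in control and between 1033 and 1391 FPKM after butyrate. Its defining gene MYH11 was low in both groups, at 0.662 and 0.0762 FPKM. With a butyrate mean under 0.1 FPKM, MYH11 was tested through its control values, which favours a fall. The part of these markers in the PDE5A values was not tested.

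PDE9A (chromosome 1, 144493954 to 144604738), a high-affinity cGMP phosphodiesterase, was at 0.956, 1.16 and 1.83 FPKM in control and at 7.71, 7.37 and 6.96 FPKM after butyrate. The lowest butyrate value was well above the highest control value, and the confidence bounds did not meet, with 2.76 FPKM as the highest upper bound in control and 5.33 FPKM as the lowest lower bound after butyrate. The means differed 5.59-fold, and PDE9A was a DEG (log2 fold change 2.44 ± 0.22, Bonferroni adjusted p = 0.0499 by limma, just under the threshold). Its share of the FPKM of the cGMP-specific enzymes was 2.98%, 4.22% and 6.62% in the control cultures and 30.9%, 27.7% and 26.2% in the butyrate cultures. As PDE5A went the other way, the sum of the class was 29.1 ± 2.62 FPKM in control and 26.0 ± 0.950 FPKM after butyrate.

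The other catalytic gene of the class, PDE6A (chromosome 7, 63190541 to 63267342), rose from a mean of 0.0242 to 0.303 FPKM (log2 fold change 1.68 ± 0.43, adjusted p = 0.00939) and did not pass the test after quantile normalization (log2 fold change 0.72, adjusted p = 0.191). Since its control mean was under 0.1 FPKM, PDE6A was tested through its butyrate values, which favours a rise. PDE6D (chromosome 2, 120250515 to 120305878) is listed with PDE6 by name but encodes a chaperone for prenylated proteins, and it was the most abundant PDE entry. It stood at 25.2, 22.7 and 27.8 FPKM in control and at 30.5, 34 and 33.7 FPKM after butyrate, and it rose 1.3-fold without overlap (log2 fold change 0.38 ± 0.09, adjusted p = 0.00597). PDE6G, an inhibitory subunit of PDE6, was listed at 0 in the controls and at 0.592, 0.346 and 0 FPKM after butyrate, and was called only without butyrate culture 3 (adjusted p = 0.00346). Over all catalytic PDE entries, the summed level was 57.6 ± 3.6 FPKM in control and 58.2 ± 1.76 FPKM after butyrate.

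Among the PKA subunits 3 of the 4 regulatory genes changed, 2 upward and 1 downward, while PRKAR1A and both catalytic genes were not called. Of all 6 subunits 33.3% rose and 16.7% fell, beside 32.5% and 25.9% of all tested genes. PRKACA (chromosome 7, 12693766 to 12712110), the main catalytic subunit of most tissues, was at 5.28, 6.28 and 8.24 FPKM in control and 8.16, 9.05 and 8.87 FPKM after butyrate. Control culture 3 overlapped the butyrate cultures, and the log2 fold change of 0.41 ± 0.16 missed the threshold (adjusted p = 0.0525). PRKACA passed it without that culture (log2 fold change 0.58, adjusted p = 0.00655), after rescaling to equal sums (log2 fold change 0.54, adjusted p = 0.0194) and where only genes with a mean of at least 1 FPKM were tested (adjusted p = 0.0401). PRKACB (chromosome 3, 60079836 to 60221943), the β form of the catalytic subunit, was at 6.04, 5.91 and 5.93 FPKM in control and at 6.58, 6.19 and 5.52 FPKM after butyrate, and its log2 fold change of 0.03 had a 95% interval from -0.23 to 0.28.

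PRKAR1A (chromosome 19, 62317495 to 62328902), the type I regulatory subunit found in most cells, was by far the most abundant member and ranked 348 among the 15813 genes tested. It stood at 338, 338 and 353 FPKM in control and at 326, 350 and 338 FPKM after butyrate. The groups overlapped, and the 95% interval of the log2 fold change ran from -0.12 to 0.07 around -0.02. PRKAR1A held 87.0% ± 0.447 of the regulatory FPKM in control and 87.8% ± 0.119 after butyrate.

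The type II subunits, which anchoring proteins hold at membranes and organelles, moved in opposite directions. PRKAR2A (chromosome 22, 51658043 to 51727840) was at 45.3, 44.3 and 42.3 FPKM in control and at 30.1, 32.8 and 30.4 FPKM after butyrate. No values overlapped, nor did the confidence bounds (lowest 38.3 FPKM in control, highest 36.3 FPKM after butyrate), and PRKAR2A fell to 0.708 of control (log2 fold change -0.50 ± 0.06, adjusted p = 0.000158). The entry LOC786363 lies within its span at 2.78 and 2.87 FPKM. PRKAR2B (chromosome 4, 48435187 to 48534701), the form known from brain and fat, was at 4.26, 5.15 and 6.47 FPKM in control and at 9.99, 11 and 10.3 FPKM after butyrate. It rose 1.97-fold, again without overlap of the values (log2 fold change 0.99 ± 0.15, adjusted p = 0.000572). The confidence bounds of PRKAR2B did meet, narrowly (highest 8.03 FPKM in control, lowest 8.02 FPKM after butyrate).

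PRKAR2B therefore went from 8.60%, 10.4% and 13.3% of the type II FPKM in the control cultures to 24.9%, 25.1% and 25.4% in the butyrate cultures. The 3 control shares were spread more widely than the 3 butyrate shares, and the groups were far apart. PRKAR1B (chromosome 25, 42490443 to 42549275), a type I form known from brain, was at 2.67, 1.91 and 1.86 FPKM in control and at 4.96, 5.59 and 6.08 FPKM after butyrate. It rose 2.58-fold (log2 fold change 1.34 ± 0.18, adjusted p = 0.000229). Its values did not overlap, but its confidence bounds did (highest 3.83 FPKM in control, lowest 3.41 FPKM after butyrate). The summed regulatory level, set by PRKAR1A, was 395 ± 8.26 FPKM in control and 385 ± 14.1 FPKM after butyrate, and the summed catalytic level was 3.18% ± 0.308 and 3.84% ± 0.115 of it.

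The EPACs sense cAMP apart from PKA. RAPGEF3 (EPAC1; chromosome 5, 32688483 to 32721146) was the more abundant, at 1.07, 1.67 and 1.77 FPKM in control and 2.23, 2.14 and 1.63 FPKM after butyrate, and it was not called (log2 fold change 0.41 ± 0.24, adjusted p = 0.185). RAPGEF4 (EPAC2; chromosome 2, 23644875 to 23974945), the form known from brain and pancreatic islets, was at 0.165, 0.122 and 0.189 FPKM in control and at 0.790, 1.23 and 0.996 FPKM after butyrate. Values and confidence bounds were apart, and RAPGEF4 rose 6.34-fold (log2 fold change 2.08 ± 0.31, adjusted p = 0.000466). It made up 13.4%, 6.77% and 9.63% of the EPAC FPKM in control and 26.2%, 36.4% and 37.9% after butyrate.

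PPP1R1B (chromosome 19, 40655221 to 40663767) encodes DARPP-32, which inhibits protein phosphatase 1 once PKA has phosphorylated it and is best known from neurons of the striatum. It was listed at 0, 0 and 0.267 FPKM in the control cultures and at 7.56, 6.02 and 5.82 FPKM in the butyrate cultures. The highest upper confidence bound in control was 0.576 FPKM and the lowest lower bound after butyrate was 4.39 FPKM. PPP1R1B was a DEG, with the largest log2 fold change of all members, 5.40 ± 0.49 (limma, Bonferroni adjusted p = 0.0456), and ranked 24 among the 15813 tested genes by that value. Its control mean of 0.0891 FPKM was under the filter of 0.1 FPKM, so its selection through butyrate values favours a rise. The log2 fold change moved with the constant added before the logarithm, from 2.78 with 1 to 7.73 with 0.01. The 4 genes on a neuron marker list also rose, as did 32.5% of all tested genes. Summed, the 4 markers went from between 3.61 and 5.81 FPKM to between 14.7 and 17.0 FPKM. The list was led by SYN1, at mean levels of 2.94 and 9.09 FPKM. RBFOX3, which defines mature neurons, was listed at 0, 0.0803 and 0 FPKM in the control cultures and averaged 1.02 FPKM after butyrate. With a control mean under 0.1 FPKM, RBFOX3 was tested through its butyrate values, which favours a rise, and 60.5% of all tested genes of that kind rose. The part of these markers in the PPP1R1B values was not tested.

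**Figure D4:**
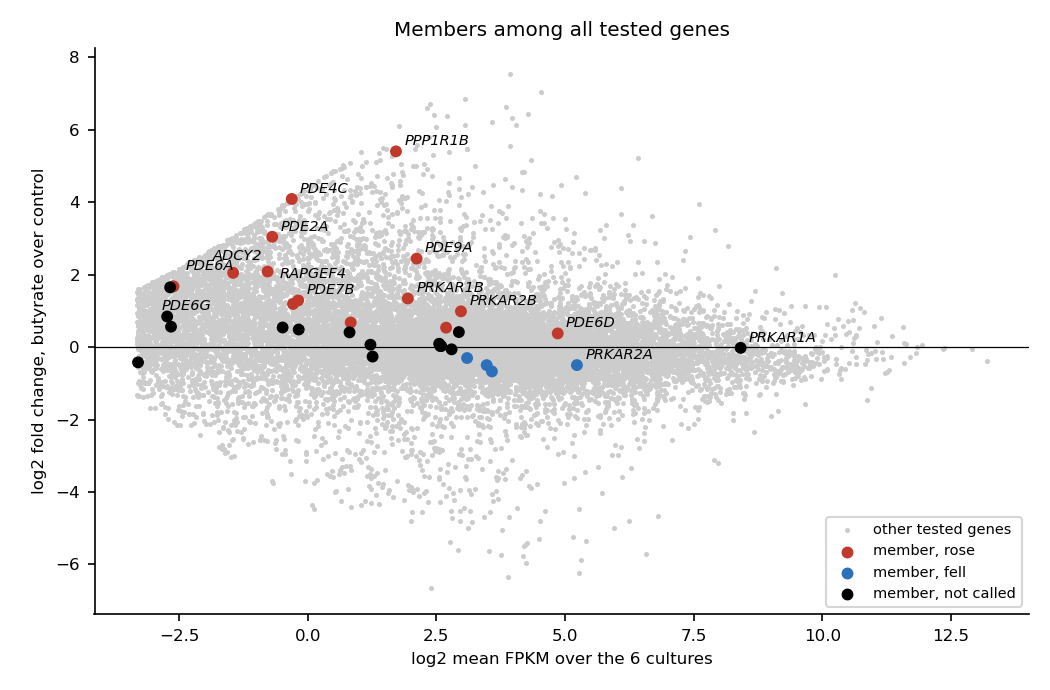
Log2 fold change, butyrate over control, against log2 of the mean FPKM over the 6 cultures for the 15813 tested genes (grey), with the members in red (rose), blue (fell) or black (not called). The members that rose most, PPP1R1B, PDE4C and PDE2A, lay along the upper edge of the cloud, where genes near 0 in control lie, while PRKAR2A and PRKAR2B moved by 1 or less at higher levels.

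Genes that act before, beside and after the members were described from lists drawn up by textbook role. Of the G protein subunits 3 of the 4 tested rose and none fell, or 75% risen in a list of few genes. Over all tested genes 32.5% rose and 25.9% fell. GNAS, which encodes the stimulatory α subunit, went from 348 ± 8.28 to 381 ± 4.26 FPKM (log2 fold change 0.13 ± 0.04, adjusted p = 0.0120). GNAI2, an inhibitory α subunit, went from 155 ± 5.91 to 274 ± 9.53 FPKM (log2 fold change 0.82 ± 0.05, adjusted p = 1.4e-06), and GNAI1 rose by 0.53 on the log2 scale.

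Among the receptors that raise or lower cAMP, 30 were listed, 17 were tested, 14 rose and 2 fell, or 82.4% and 11.8% beside 32.5% and 25.9% of all tested genes. A control mean under 0.1 FPKM was found for 7 of the 17, which passed the filter through their butyrate values, and 6 of these rose, as did 60.5% of all tested genes with so low a control mean. Of the other 10, 8 rose and 2 fell. The largest values belonged to ADORA2A, a Gs-coupled adenosine receptor, from 0.163 ± 0.282 to 10 ± 1.21 FPKM (log2 fold change 5.81 ± 0.62, adjusted p = 6.4e-05), CRHR2, a receptor of the urocortins, from 0.0404 to 1.52 FPKM, and ADRB3, an adrenergic receptor, from 0.0548 to 1.43 FPKM. GPBAR1, the Gs-coupled bile acid receptor, was picked out after its values were seen, as the DEG of the list, and went from 7.44 ± 2.18 to 64.6 ± 5.68 FPKM (log2 fold change 3.14 ± 0.20). The 2 that fell were PTGER4, a prostaglandin E2 receptor, from 21.4 ± 0.604 to 15.8 ± 1.10 FPKM, and ADORA2B, a further adenosine receptor, from 35.2 ± 4.37 to 27.3 ± 1.51 FPKM. These were the receptors with a higher level in control than GPBAR1, and they too were named after their values were seen.

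Of 16 tested inhibitors and anchoring proteins of PKA, 5 rose, 3 fell and 8 were not called. The shares that rose and fell were 31.2% and 18.8%, beside 32.5% and 25.9% of all tested genes. PKIA and PKIG encode small proteins that block the catalytic subunits. PKIA went from 0.594 ± 0.325 to 3.87 ± 0.781 FPKM (log2 fold change 2.60 ± 0.34, adjusted p = 0.0002). The more abundant PKIG, picked out after its values were seen, went from 11.7 ± 1.44 to 32.4 ± 3.14 FPKM (log2 fold change 1.46 ± 0.11, adjusted p = 6.6e-06). The anchors AKAP4, with a mean of 0.0113 FPKM in control and 1.14 FPKM after butyrate, and AKAP12, with 0.257 and 0.940 FPKM, rose as well. AKAP4 was tested through its butyrate values, which favours a rise. AKAP8, a nuclear anchor, fell from 9.65 ± 0.406 to 4.41 ± 0.136 FPKM (log2 fold change -1.11). EZR, the most abundant gene of the list, fell from 805 ± 14.1 to 573 ± 21.0 FPKM, and AKAP1 from 15.0 to 9.89 FPKM. These 3 were also picked out after their values were seen. The list summed to between 846 and 879 FPKM in control and between 624 and 663 FPKM after butyrate.

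**Figure D5:**
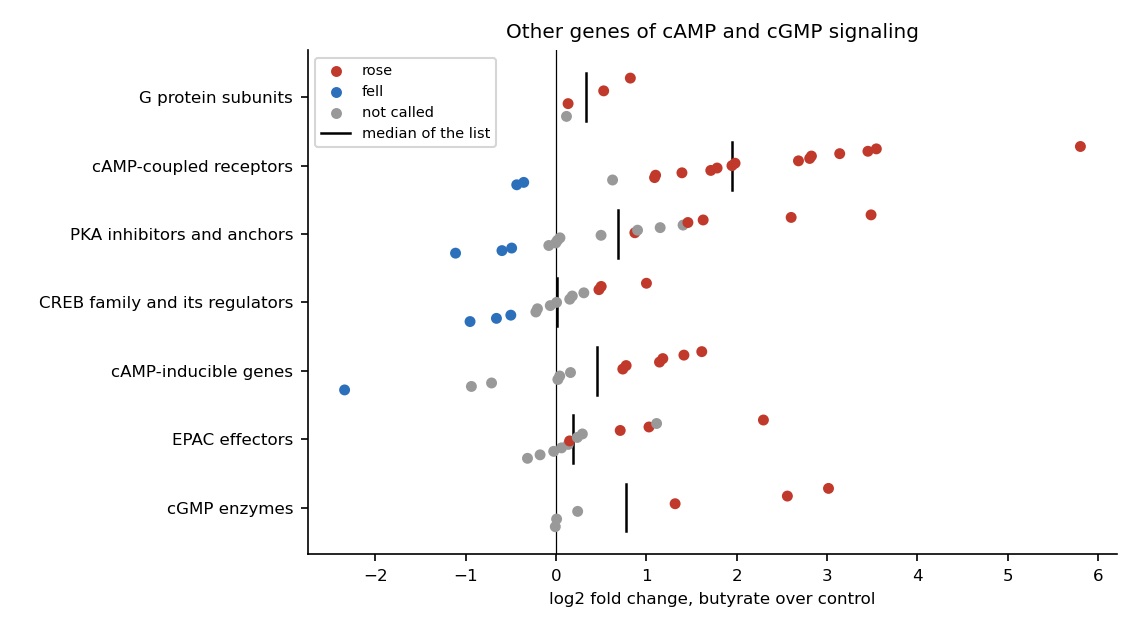
Log2 fold change, butyrate over control, of each tested gene on 7 lists of cAMP and cGMP signaling genes (red rose, blue fell, grey not called), with the median of each list as a black bar. Of the 17 receptors, 7 entered the test with a control mean under 0.1 FPKM, which favours a place on the right, and no gene of the CREB list had so low a control mean. The list labelled EPAC effectors also holds other Rap exchange factors and Rap GTPase activators.

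Downstream of PKA, a list of 13 genes held the CREB family and its coactivators. It also held the SIK kinases and the catalytic subunits of protein phosphatase 1. Of the 13 genes 3 rose, 3 fell and 7 were not called. Both called shares were 23.1%, beside 32.5% and 25.9% of all tested genes. The kinase gene SIK3 and the phosphatase gene PPP1CB were among those that rose, and the phosphatase gene PPP1CC was among those that fell. CREM, a gene that cAMP itself induces in other cells, went from 2.33 ± 0.797 to 4.64 ± 0.804 FPKM (log2 fold change 1.00 ± 0.24, adjusted p = 0.0065), whereas ATF1 fell from 12.8 ± 1.66 to 7.99 ± 0.231 FPKM and CREBBP, a histone acetyltransferase, from 1.08 to 0.508 FPKM. Of 12 tested genes known to be induced by cAMP, 6 rose, 1 fell and 5 were not called. These shares were 50% and 8.33%, beside 32.5% and 25.9% of all tested genes. The largest changes were those of NR4A3, CITED2 and TH. NR4A3, a nuclear receptor, fell from 0.568 ± 0.136 to 0.0344 ± 0.0452 FPKM. With a butyrate mean under 0.1 FPKM, NR4A3 was tested through its control values, which favours a fall. Of the 270 tested genes of that kind 29.3% fell and none rose. CITED2, a transcriptional coregulator, rose from 61.3 ± 2.37 to 188 ± 17.0 FPKM (adjusted p = 3.3e-07), and TH, tyrosine hydroxylase, rose from 0.739 to 2.08 FPKM.

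A list of 12 genes around the EPACs held Rap GTPases, other Rap exchange factors and Rap GTPase activators. Of these 4 rose and none fell by limma. The 33.3% that rose was close to the 32.5% of all tested genes, of which 25.9% fell. RAP1GAP, which switches Rap off again, went from 1.19 ± 0.221 to 6.27 ± 1.54 FPKM (log2 fold change 2.30, adjusted p = 3e-05), RAP2B from 8.31 to 17.1 FPKM and RAP2C from 9.92 to 16.3 FPKM. Among the enzymes that make or read cGMP, 3 of 6 tested rose and none fell by limma. That 50% stands beside 32.5% of all tested genes that rose and 25.9% that fell. GUCY2C, the intestinal guanylyl cyclase that guanylin activates, was a DEG, from 0.383 ± 0.0582 to 3.83 ± 0.641 FPKM (log2 fold change 3.02, adjusted p = 6.6e-06). NPR1, the receptor for atrial natriuretic peptide, rose from 0.268 to 2.06 FPKM and PRKG1, a cGMP-dependent kinase, from 0.0922 to 0.346 FPKM. PRKG1, with a control mean under 0.1 FPKM, was tested through its butyrate values, which favours a rise.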

How the data were processed

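RNA from 6 REPC cultures was sequenced as paired ends. Per the submitters' processing notes and the study's methods, reads were trimmed (Trim Galore 0.4.1), aligned with STAR to the cattle build UMD3.1 and quantified with Cufflinks, and the authors deposited FPKM values per gene for each culture, with confidence bounds. The study names Ensembl as the source of its annotation files, while the tables carry NCBI sequence names and LOC symbols; the strand setting is not given in the sources used here. Each sequence was given the chromosome that most of its symbols have in RefSeq.

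Genes with a mean of at least 0.1 FPKM were tested on log2(FPKM + 0.1) with limma 3.58.1 (R 4.3.3; trended prior variance), 15813 in all, and 2 genes with failed estimates were left out. The script was first tested on simulated data. FPKM is relative to each library, so a change in a few very abundant genes shifts all others. Intervals are 95%.

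Members and gene lists were chosen with earlier results of these data known. Values per culture are given for DEGs, genes that changed at least 1 on the log2 scale with a group mean of at least 1 FPKM, the most abundant member of each class, PKA subunits and PPP1R1B, and for other members that were added after their values were seen. From other lists the 3 called genes with the largest change were named. Alternatives were 2 other pseudocounts, no filter, a filter at 1 FPKM, no variance trend, rescaling to equal sums, quantile normalization, a replicate block and leaving out each culture.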

Additional observations from a re-analysis of the deposited data

How the results depend on the processing

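Of the 18 members called, 13 kept their rise or fall under every one of the 14 alternatives that tested them. The count of 3 member DEGs was 0 with a pseudocount of 0.01, 1 with a pseudocount of 1, 1 with no filter, 1 with no variance trend, 1 after quantile normalization and between 0 and 2 when 1 culture was left out. The count of members that rose went from 14 to 8 with the filter at 1 FPKM, where 20 were tested. Of the members called, 77.8% rose, and 64.7% did so after quantile normalization, which moved the median of all genes from 0.10 to -0.045. Equal sums moved it to 0.24. Members that fell numbered 6 instead of 4 after quantile normalization, with ADCY4 and PDE4D added. Quantile normalization also reversed the sign of uncalled members, to -0.07 for ADCY3, -0.067 for ADCY9, -0.067 for PDE4A, -0.0021 for PDE4B, -0.23 for PDE7A, -0.51 for PDE8B, -0.075 for PDE1B, -0.067 for PRKACB and 0.19 for PRKAR1A, the last then past the threshold (adjusted p = 0.00274). Equal sums gave 0.060 for ADCY6 and 0.10 for PRKAR1A. Leaving out 1 culture gave log2 fold changes from -0.15 to 0.022 for ADCY6, -0.045 to 0.083 for PDE4A, -0.050 to 0.20 for PDE7A, -0.027 to 0.097 for PRKACB and -0.047 to 0.0042 for PRKAR1A. The replicate numbers were not taken to pair the cultures, since deviations of same-numbered cultures correlated at 0.0228, -0.00431 and 0.00177. With a replicate block there were 0 member DEGs and 15 members that rose, PRKACA among them (adjusted p = 0.0389). The causes of these differences were not tested. The absence of counts limits what can be said of members under 0.1 FPKM.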
